A study of Mus musculus with 6 samples.

Results

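Small nucleolar RNAs (snoRNAs) and small Cajal body RNAs (scaRNAs) were examined in mouse embryonic fibroblasts (MEFs) that carry 1 inactivated copy of Nipbl and in their wild type (WT) littermates. The RNAs were taken from the deposited gene tables by name and strand: every gene annotated on the minus strand whose name starts with Snora, Snord or Scarna. This gave 60 genes of 38483 in the tables, of which 16 are H/ACA RNAs (Snora), 37 are C/D RNAs (Snord) and 7 are scaRNAs (Scarna). Another 63 genes with such names lie on the plus strand, where all 19214 genes of any kind were listed at 0 in every culture, so nothing can be said about them here. Of the 60 RNAs, 58 had a count in any culture and 51 had a count in all 6.

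The study asked how the transcriptome of MEFs changes when Nipbl, which loads cohesin onto chromosomes, is reduced. RNA sequencing covered 3 WT cultures and 3 Nipbl+/- cultures, all of the CD1 strain and all at passage 3 in DMEM with fetal bovine serum. The Nipbl+/- cultures carry a heterozygous Nipbl knockout in every cell. MEFs are grown from the body of mid-gestation embryos after limbs, brain and organs are removed, so a culture may hold more than 1 cell type. Cultures of the same genotype are replicates by their labels, but nothing used here ties each culture to an embryo. The paper describes taking the embryos from 1 pregnant mouse, so the cultures may come from 1 litter. The p-values measure only the spread between these cultures. The extraction text in the labels names embryonic stem cells, whereas each sample is labelled as MEFs. Total RNA was depleted of ribosomal RNA and was not selected for a poly(A) tail, so RNAs without a tail remain in the libraries.

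The H/ACA and C/D RNAs are guides that pair with ribosomal RNA precursors in the nucleolus. H/ACA RNAs direct the change of uridine to pseudouridine and share an ACA triplet near the 3′ end. C/D RNAs direct methylation of the ribose and share a C box near the 5′ end and a D box near the 3′ end. The scaRNAs have the same boxes, alone or together, but guide modification of spliceosomal RNAs in Cajal bodies. Most of these RNAs in mammals are cut out of introns of other genes, called host genes, many of which encode ribosomal proteins or are noncoding small nucleolar RNA host genes (Snhg).

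The sequences of 12 RNAs that the results turn on are shown first, from the GENCODE M21 transcripts, 5′ to 3′ in DNA letters. Coordinates are of GRCm38, which is the build mm10, and each RNA is on the minus strand. The first set is the Snora73 pair, the most counted RNAs of all 60, with capitals at the 7 bases that differ. Snora73a (ENSMUSG00000064387) is at chr4:132352775-132352979 and Snora73b (ENSMUSG00000065353) at chr4:132352322-132352526.
Snora73a: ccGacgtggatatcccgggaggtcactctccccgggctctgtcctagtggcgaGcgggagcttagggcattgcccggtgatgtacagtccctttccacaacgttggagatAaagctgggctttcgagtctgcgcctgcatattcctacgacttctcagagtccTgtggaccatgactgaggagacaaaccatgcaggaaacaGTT
Snora73b: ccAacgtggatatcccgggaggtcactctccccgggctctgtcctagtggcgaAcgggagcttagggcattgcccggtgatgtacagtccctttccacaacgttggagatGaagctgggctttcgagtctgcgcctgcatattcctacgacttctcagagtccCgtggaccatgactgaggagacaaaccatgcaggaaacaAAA
The pair shares 198 of 205 bases (96.6%). Both copies lie inside the annotated spans of Rcc1 and of Snhg3, and both overlap the annotated span of the plus-strand noncoding gene Gm17300.

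The second set holds H/ACA-type ends, with the ACA of the last 10 bases in capitals. It gives Snora78 (chr17:24719676-24719803), the third most abundant H/ACA RNA, Snora21 (chr11:97781639-97781775) and Snora2b (chr15:98526346-98526482), which had the most negative fold changes of their class, and the scaRNA Scarna13 (chr12:105031075-105031349).
Snora78: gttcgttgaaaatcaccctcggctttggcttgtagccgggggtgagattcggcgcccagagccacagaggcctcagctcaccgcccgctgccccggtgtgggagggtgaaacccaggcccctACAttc
Snora21: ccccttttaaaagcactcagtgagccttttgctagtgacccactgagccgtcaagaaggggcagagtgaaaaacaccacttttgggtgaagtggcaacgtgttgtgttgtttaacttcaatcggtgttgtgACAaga
Snora2b: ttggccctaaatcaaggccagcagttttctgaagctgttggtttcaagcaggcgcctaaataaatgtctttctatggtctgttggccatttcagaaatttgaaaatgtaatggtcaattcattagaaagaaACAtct
Scarna13: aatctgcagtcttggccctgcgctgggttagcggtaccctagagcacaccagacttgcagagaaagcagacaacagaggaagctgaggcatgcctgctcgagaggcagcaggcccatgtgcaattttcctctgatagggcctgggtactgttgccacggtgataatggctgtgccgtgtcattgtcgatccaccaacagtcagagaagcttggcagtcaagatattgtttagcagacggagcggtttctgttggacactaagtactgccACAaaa

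The third set holds C/D boxes, with the first NTGATGA (C box) and the last CTGA (D box) in capitals. It gives Snord17 (chr2:144265979-144266216) and Snord15b (chr7:99479563-99479707), the most abundant of the C/D RNAs, then Snord123 (chr15:32241853-32241923), Snord69 (chr14:31014287-31014366) and Snord32a (chr7:45127382-45127464), the lowest fold changes of all, and the scaRNA Scarna9 (chr9:15326264-15326333).
Snord17: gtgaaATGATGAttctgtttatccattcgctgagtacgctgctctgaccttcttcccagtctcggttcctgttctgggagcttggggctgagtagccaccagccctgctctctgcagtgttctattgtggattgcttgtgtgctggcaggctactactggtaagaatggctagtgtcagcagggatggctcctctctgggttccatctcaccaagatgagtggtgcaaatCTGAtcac
Snord15b: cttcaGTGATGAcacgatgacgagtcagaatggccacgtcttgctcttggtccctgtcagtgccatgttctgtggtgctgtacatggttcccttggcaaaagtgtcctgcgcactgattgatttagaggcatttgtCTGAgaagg
Snord123: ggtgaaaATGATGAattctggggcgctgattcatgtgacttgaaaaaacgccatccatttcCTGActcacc
Snord69: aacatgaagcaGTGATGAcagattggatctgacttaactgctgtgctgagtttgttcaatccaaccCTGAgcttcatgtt
Snord32a: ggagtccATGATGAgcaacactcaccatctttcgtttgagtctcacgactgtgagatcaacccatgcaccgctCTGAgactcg
Scarna9: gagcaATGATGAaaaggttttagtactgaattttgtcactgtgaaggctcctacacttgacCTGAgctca

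The class names matched these letters in most sequences, searched on the RNA strand alone. An ACA in the last 10 bases was found in 16 of 16 H/ACA RNAs, 3 of 7 scaRNAs and 4 of 37 C/D RNAs, against 10.6% of windows of about the same length at the starts of protein-coding transcripts. NTGATGA was found in 29 of 37 C/D RNAs, 5 of 7 scaRNAs and 0 of 16 H/ACA RNAs, against 1.88% of windows of 80 bases at those starts. CTGA within the last 20 bases was found in 37 of 37 C/D RNAs, against 9.70% of windows of 80 bases, and in 3 of 16 H/ACA RNAs. NTGATGA can itself run into a CTGA where the N is C, so the letters of the boxes can overlap. A match describes the letters only.

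Levels between RNAs were compared in RPKM, the read count divided by gene length in kilobases and by library size, because the lengths of the classes differ. The annotated length ran from 127 to 205 bases for H/ACA RNAs (median 132.5), from 65 to 238 bases for C/D RNAs (median 80) and from 70 to 414 bases for scaRNAs (median 139). The median of the mean RPKM over the 6 cultures was 9.09 for H/ACA RNAs, 4.21 for C/D RNAs and 87.6 for scaRNAs. The order of the medians was therefore scaRNA, H/ACA, C/D, although single RNAs of each class ran from near 1 RPKM or below to over 100. A mean RPKM over 10 was reached by 8 of 16 H/ACA RNAs, 8 of 37 C/D RNAs and 5 of 7 scaRNAs.

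The H/ACA class was dominated by Snora73a, a guide-like RNA of the H/ACA family that works in the cutting of small-subunit ribosomal RNA rather than in pseudouridylation. Its RPKM was 1800, 2051 and 1307 in WT cultures 1, 2 and 3, and 1662, 1627 and 1752 in Nipbl+/- cultures 1, 2 and 3. The 3 Nipbl+/- values sat inside the WT range, whose lowest value was that of culture 3 and whose highest was that of culture 2. Its near copy Snora73b stood at 1039, 1270 and 727 RPKM in WT and at 908, 692 and 956 in Nipbl+/-. The pair held 95.04% of all H/ACA counts. The next H/ACA RNAs were Snora78 (mean 112 RPKM), Snora7a (19.8) and Snora68 (17.0), and the remaining 11 lay between 1.62 and 12.4. Snora78 lies in the span of the noncoding host Snhg9, which had a mean of only 1.999 RPKM, and opposite the plus-strand gene Rps2. The strand setting of the counting is not given, so whether reads of Rps2 were counted for Snora78 is not known.

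The C/D class was dominated by Snord17, which is longer than any other C/D RNA in the tables. Its RPKM was 268, 355 and 197 in WT and 211, 192 and 235 in Nipbl+/-. Snord17 held 65.6% of all C/D counts. Snord15b, which guides methylation of large-subunit ribosomal RNA, stood at 86.8, 119.8 and 69.8 RPKM in WT and at 82.6, 92.8 and 99.8 in Nipbl+/-. For both RNAs, WT culture 2 was the highest of the 6 and the genotypes overlapped. Snord15a followed with a mean of 29.6 RPKM, then Snord100 with 13.1 and Snord34 with 12.9. At the low end, 6 C/D RNAs had a mean under 1 RPKM. Snord13, which guides acetylation of small-subunit ribosomal RNA, is transcribed from its own gene and had a mean of 2.58 RPKM.

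The C/D RNAs of the Snord116 region, which is imprinted and known for its use in neurons, were at or near 0. Snord116l1 and Snord116l2, whose sequences are identical over all 94 bases, were counted 0 times among 135450180 counts of the 6 cultures, which allows up to 0.0222 CPM (counts scaled to the same library size) by counting error alone. That limit holds only if reads matching both copies were counted, which is not given. Snord64 and Snord107, from the same region, had 14 and 9 counts in all. Both were at 0 in Nipbl+/- culture 2, and the cultures of the 2 genotypes overlapped.

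Of the scaRNAs, 4 stood well above the others. Scarna10, a guide with both kinds of box, had 294.8, 291 and 265 RPKM in WT and 315, 305 and 312 in Nipbl+/-, so that every Nipbl+/- value was above every WT value by this measure. Scarna2, which guides modification of a spliceosomal RNA and lies in no host gene in the tables or in M21, had 226, 208 and 198 RPKM in WT and 218, 207 and 206 in Nipbl+/-. Scarna13, hosted by Snhg10 in M21, had a mean of 145.9 RPKM and Scarna9 one of 87.6. Scarna17 had a mean of 11.1 RPKM, and Scarna3b and Scarna8 had 1.39 and 0.216. The scaRNAs differed little between cultures: their summed level was 247, 239 and 220 CPM of the library total in WT and 241, 241 and 246 in Nipbl+/-.

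**Figure D1:**
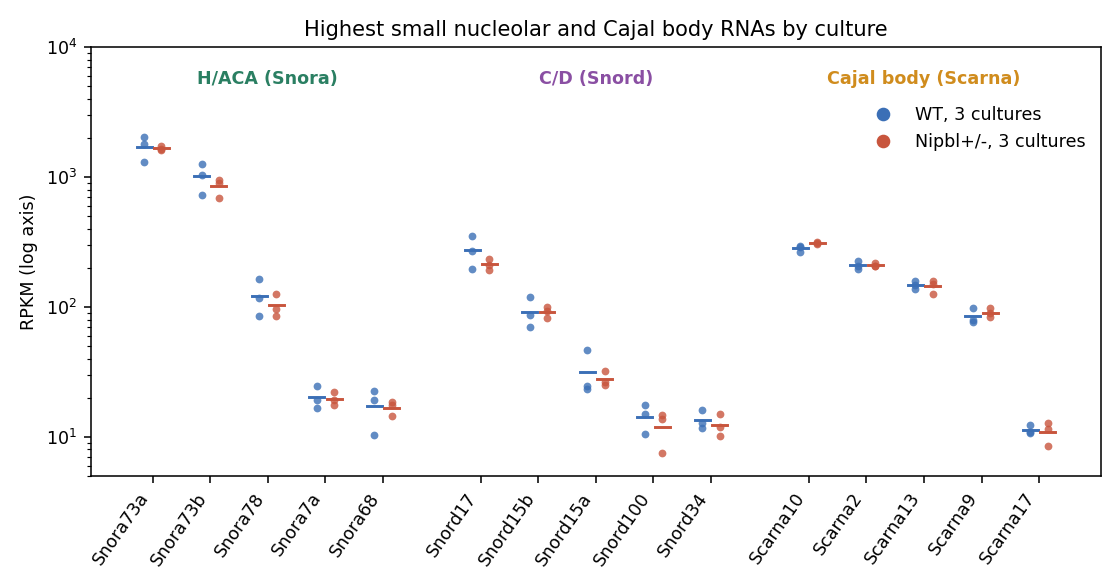
RPKM (log axis) of the 5 most abundant RNAs of each class in each culture, WT in blue and Nipbl+/- in red, with the horizontal bar at the mean of 3 cultures. Snora73a and Snora73b stand highest, at means of 1700 and 932 RPKM over the 6 cultures, and the points of the genotypes overlap for each RNA shown except Scarna10.

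Length and level went together at the top end. The 6 RNAs of 200 bases or more (Snora73a, Snora73b, Snord17, Scarna2, Scarna10 and Scarna13) held 92.6% of the counts of all 60 and had a median of 269.97 RPKM. The 18 RNAs of at least 120 but under 200 bases had a median of 6.70 RPKM, and the 36 shorter ones had a median of 4.11. Among those under 120 bases the highest was Scarna9, at 87.6 RPKM, and the highest C/D RNA was at 13.1. Spearman's rho between length and mean RPKM was 0.34 over all 60 RNAs, 0.18 within H/ACA RNAs, 0.05 within C/D RNAs and 0.64 within the 7 scaRNAs, where the points share the same 6 libraries. RNAs shorter than the fragments of a library are recovered less well in such preparations, and the part of this in the levels was not tested.

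**Figure D2:**
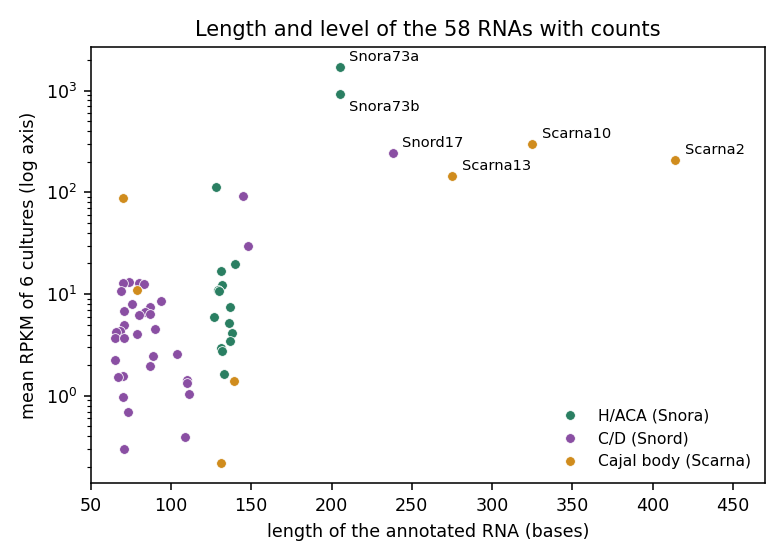
Annotated length in bases against mean RPKM over the 6 cultures (log axis) for the 58 RNAs with any count, coloured by class. All 6 RNAs of 200 bases or more lie above 100 RPKM, whereas most of the shorter ones lie below 20.

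The genotypes were then compared class by class. H/ACA RNAs took 633, 748 and 455 CPM of the library total in WT cultures 1 to 3 and 569.7, 514 and 607 in Nipbl+/- cultures 1 to 3, that is 612 ± 147 and 564 ± 46.6 (mean ± SD, n = 3). C/D RNAs took 96.8, 128 and 75.6 CPM in WT and 79.8, 75.9 and 90.9 in Nipbl+/-, that is 100.3 ± 26.5 and 82.2 ± 7.76 (SD, n = 3). For scaRNAs the means were 235 ± 14.2 and 243 ± 3.10 (SD, n = 3). In each class the Nipbl+/- mean lay within 1 SD of the WT mean, and the WT cultures spread more than the Nipbl+/- cultures. WT culture 2 was the highest and WT culture 3 the lowest for H/ACA RNAs and for C/D RNAs alike. In these bulk samples, fewer cells of a type and less RNA per cell cannot be told apart.

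**Figure D3:**
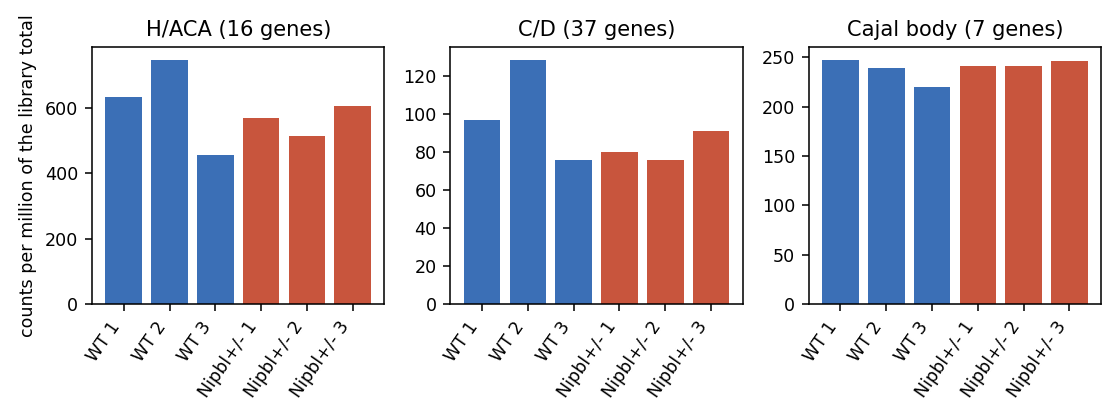
Summed CPM of each class (counts scaled by the library total), 1 bar per culture, WT in blue and Nipbl+/- in red, each axis starting at 0. WT culture 2 is the highest and WT culture 3 the lowest bar for H/ACA RNAs, at 748 and 455 CPM, while the scaRNA bars all lie between 220 and 247.

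The test across genes called none of these RNAs. Only 33 of the 60 passed the filter on low counts: 13 of 16 H/ACA RNAs, 15 of 37 C/D RNAs and 5 of 7 scaRNAs, and the highest count of any that did not pass was 15. With edgeR's quasi-likelihood test and Benjamini-Hochberg adjustment over 9061 genes, the number with an adjusted p under 0.05 was 0 in the higher and 0 in the lower direction in Nipbl+/-, against a background of 1.95% of all genes called (1.04% higher and 0.916% lower). At an unadjusted p under 0.05, 0 were higher and 4 were lower (Snord123, Snord69, Snord32a and Snora21), against 8.98% and 7.95% of all genes. DESeq2 also called 0, with 1 at an unadjusted p under 0.05, but gave no adjusted p for Snord123 or Snord69. The exact test of edgeR called 0, with 5 at an unadjusted p under 0.05. Each Nipbl+/- culture lay under every WT culture in CPM, now scaled by TMM as in the test, for 6 of the 33 (18.2%), against 10.8% of all genes, and above them for 0, against 12.0%.

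The fold changes leaned below 0. The log2 fold change (Nipbl+/- over WT) was below 0 for 27 of the 33 RNAs (81.8%) and for 51.6% of all genes. Its median was -0.24 over the H/ACA RNAs (11 of 13 below 0), -0.23 over the C/D RNAs (13 of 15 below 0) and -0.05 over the scaRNAs (3 of 5 below 0), against -0.0057 over all genes. The H/ACA and C/D medians were thus close in size, and no test was made between them. The standard error of a single RNA had a median of 0.27 in the H/ACA class and 0.31 in the C/D class. The lean depended in part on single cultures. Over the 33 RNAs the median was -0.19, and it was -0.07 without WT culture 2 (37 tested), -0.07 without Nipbl+/- culture 2 (37 tested), -0.30 without WT culture 3 and -0.29 without Nipbl+/- culture 3. WT culture 2 held the highest value for 17 of the 33 RNAs, and Nipbl+/- culture 2 the lowest for 13 and WT culture 3 the lowest for 9.

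The estimates were larger in size among RNAs with few counts, while the share below 0 was similar. The 21 RNAs with a mean log2 CPM under 1 had a median log2 fold change of -0.24 with 17 below 0, where all 1440 genes at that level had a median of -0.08 with 57.6% below 0. The 12 RNAs with a mean log2 CPM of 1 or more ranged from -0.41 to 0.09, with a median of -0.09 and 10 below 0. The 14 tested RNAs that overlap no exon of another gene on their strand had a median of -0.31, with 13 below 0, and the 19 that overlap one had a median of -0.09, with 14 below 0. The other gene is not always a host: it is Mir1291 for Snora34, Mir3069 for Scarna13 and a second M21 entry of the same name for Snora43. These medians are given as descriptions, since RNAs of the same cultures are not replicates.

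**Figure D4:**
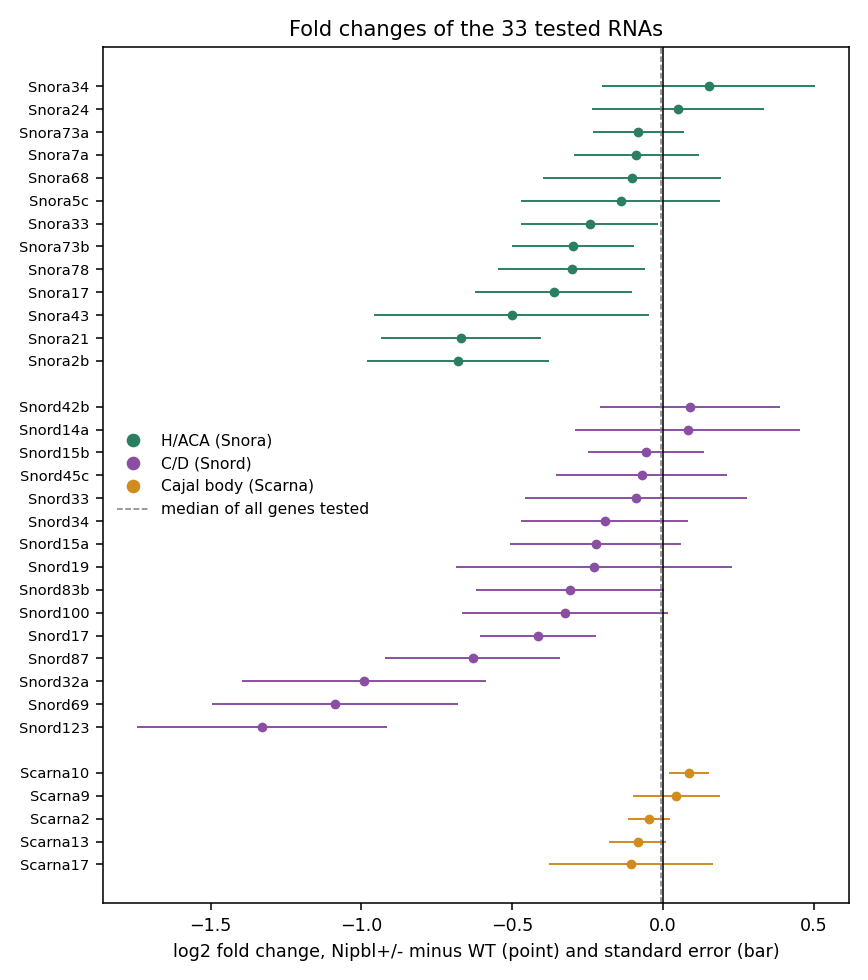
Log2 fold change (Nipbl+/- minus WT) of the 33 tested RNAs by class, with bars of 1 standard error, a solid line at 0 and a dashed line at the median of all 9061 genes (-0.0057). The points run from -1.33 (Snord123) to 0.15 (Snora34), and the bars of 4 of the 5 scaRNAs are short, with that of Scarna17 longer (standard error 0.27).

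Among H/ACA RNAs, the lowest fold changes were those of Snora2b and Snora21. Snora21, a guide encoded within Rpl23, was counted 28, 32 and 26 times in WT and 20, 16 and 20 times in Nipbl+/-. In CPM this was 1.27, 1.42 and 1.21 against 0.902, 0.611 and 0.955, so the genotypes did not overlap. Its log2 fold change was -0.67 (SE 0.27), with an adjusted p of 0.256 by edgeR's quasi-likelihood test. Snora2b, encoded within Kansl2, stood at 0.635, 0.579 and 0.603 CPM in WT and at 0.361, 0.344 and 0.4297 in Nipbl+/-, again without overlap. Its log2 fold change was -0.68 (SE 0.30, adjusted p 0.305 by the same edgeR test), from 8 to 14 counts per culture. The host genes of both were near 0, at -0.06 (SE 0.06) for Rpl23, a ribosomal protein gene, and -0.09 (SE 0.05) for Kansl2.

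The abundant H/ACA RNAs did not pass the test either. Snora73a had 394, 447 and 274 CPM in WT and 351, 342 and 360 in Nipbl+/-, with a log2 fold change of -0.08 and a 95% interval of -0.42 to 0.26. Snora73b had 227, 277 and 152 CPM in WT and 192, 145.5 and 197 in Nipbl+/-, with -0.30 and an interval of -0.76 to 0.16. Both overlapped between genotypes, and the WT range covered the Nipbl+/- range for Snora73a. For Snora78 the values were 15.9, 22.3 and 11.04 CPM against 12.7, 11.1 and 16.3, and the log2 fold change was -0.30 (SE 0.24). Without WT culture 2 the estimates were -0.017 for Snora78 and -0.094 for Snora73b. Snora34, also within Kansl2, had the highest estimate of all 33, at 0.15 (SE 0.35), and Snora24 had 0.05 (SE 0.29). The estimates of Snora7a and Snora68 were -0.09 (SE 0.21) and -0.10 (SE 0.29).

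The relative level of the Snora73 copies was compared after their values had been seen. The count of Snora73b divided by that of Snora73a was 0.577, 0.619 and 0.556 in WT and 0.546, 0.425 and 0.545 in Nipbl+/-. All 3 Nipbl+/- ratios were below all 3 WT ratios, by 0.584 ± 0.0321 against 0.506 ± 0.0695 (SD, n = 3), with Nipbl+/- culture 2 the lowest. No p-value is given, since an exact two-sided permutation test of 3 against 3 cultures cannot go below 0.1. Reads that match both copies could have been split or dropped in counting, so the values of each copy are uncertain.

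**Figure D5:**
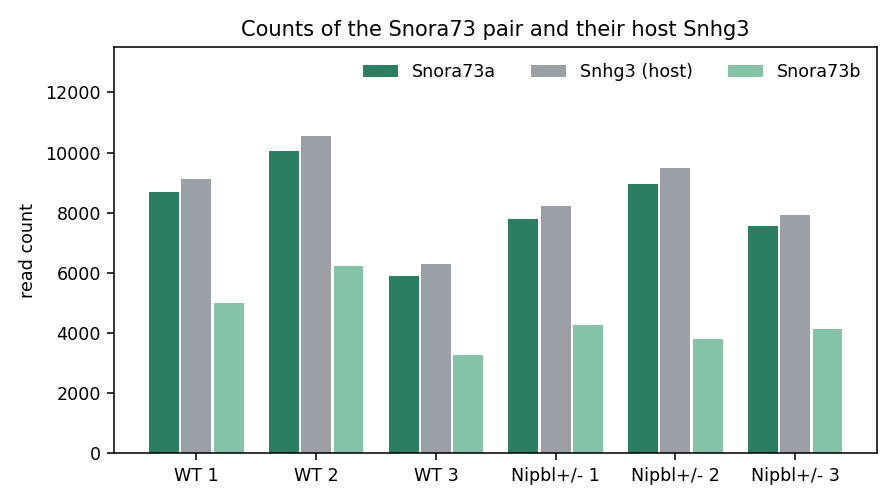
Read counts of Snora73a, of its host Snhg3 and of Snora73b in each culture, as bars from 0. The Snhg3 bar tracks the Snora73a bar and exceeds it by 362 to 537 counts in every culture.

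The counts of Snora73a and of its host Snhg3 were close in every culture. M21 places 159 of the 205 bases of Snora73a in an exon of Snhg3 and none of Snora73b. The Snhg3 count exceeded that of Snora73a by 436, 520 and 407 in WT and by 450, 537 and 362 in Nipbl+/-, and Snora73a came to 93.5% to 95.4% of the Snhg3 count. The files therefore do not separate the Snhg3 transcript from Snora73a, and whether the same reads were counted for both is not given in the sources used here. The log2 fold changes were the same to the second decimal, -0.08 (SE 0.14) for Snhg3 and -0.08 (SE 0.15) for Snora73a. Rcc1, the protein-coding gene whose span also holds the pair and whose product is the exchange factor of Ran, was at 42.9 ± 1.88 CPM in WT and 45.8 ± 5.56 in Nipbl+/- (SD, n = 3).

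Among C/D RNAs, the lowest fold changes came from RNAs with few counts. Snord123 was counted 20, 13 and 15 times in WT and 6, 11 and 3 times in Nipbl+/-, or 0.907, 0.579 and 0.696 CPM against 0.271, 0.420 and 0.143. The genotypes did not overlap, and the log2 fold change of Snord123 was -1.33 (SE 0.42, 95% interval -2.28 to -0.38). Its adjusted p was 0.152 by edgeR's quasi-likelihood test, the smallest of all 33 RNAs in that test, and 0.0583 by edgeR's exact test. Its host in the tables, the noncoding gene AC137123.1, had 33.9 ± 3.38 CPM in WT and 27.8 ± 2.39 in Nipbl+/- (SD, n = 3), with a log2 fold change of -0.28 (SE 0.09), and its cultures did not overlap either (adjusted p 0.174 by the same edgeR test).

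Snord69, a guide of large-subunit ribosomal RNA within Gnl3, was counted 11, 24 and 12 times in WT and 6, 10 and 7 times in Nipbl+/-. The log2 fold change was -1.09 (SE 0.41, adjusted p 0.234 by edgeR's quasi-likelihood test), and WT culture 2 stood apart at 1.07 CPM against 0.499 and 0.557 in the other WT cultures. Gnl3, the gene of nucleostemin, was at -0.12 (SE 0.06). Snord32a, within Rpl13a, was counted 34, 37 and 24 times in WT and 22, 8 and 19 times in Nipbl+/-, with -0.99 (SE 0.40, adjusted p 0.271 by the same edgeR test). Nipbl+/- culture 2 was its lowest, at 0.306 CPM against 0.992 and 0.907 in the others. The other RNAs of Rpl13a that were tested had estimates of -0.19 (SE 0.28) for Snord34 and -0.09 (SE 0.37) for Snord33, and Rpl13a itself, a ribosomal protein gene, had -0.13 (SE 0.09). Snord87, named after its values were seen because its genotypes did not overlap, stood at 0.635, 0.668 and 0.789 CPM in WT and at 0.496, 0.420 and 0.4297 in Nipbl+/-, with -0.63 (SE 0.29).

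The abundant Snord17 had 67.97, 89.7 and 48.0 CPM in WT and 51.7, 46.8 and 56.1 in Nipbl+/-. The log2 fold change was -0.41 (SE 0.19, 95% interval -0.85 to 0.03), with an adjusted p of 0.321 by edgeR's quasi-likelihood test. Its genotypes overlapped, since WT culture 3 lay below Nipbl+/- cultures 1 and 3, and the estimate was -0.17 without WT culture 2. Snx5, a sorting nexin gene whose intron holds it, had 0.05 (SE 0.05). Snord15b was at -0.06 (SE 0.19) and Snord15a at -0.22 (SE 0.28), which became 0.19 without WT culture 2, and Rps3, the ribosomal protein gene that hosts both, was at -0.04 (SE 0.05). The highest C/D estimates were 0.09 (SE 0.30) for Snord42b and 0.08 (SE 0.37) for Snord14a.

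The abundant scaRNAs had small standard errors. Scarna10 had 102, 101 and 88.1 CPM in WT and 105.6, 102 and 102 in Nipbl+/-, with a log2 fold change of 0.09 and a 95% interval of -0.06 to 0.24. Scarna2 had 99.7, 91.5 and 83.6 CPM in WT and 92.9, 87.7 and 85.6 in Nipbl+/-, with -0.05 and an interval of -0.21 to 0.12. In CPM the genotypes overlapped for both, unlike in RPKM for Scarna10. The interval of Scarna13 was -0.30 to 0.13 and that of Scarna9 was -0.29 to 0.38. Scarna17, with fewer counts, had a wider one of -0.73 to 0.51. The intervals of C/D RNAs with few counts were wider, such as -1.27 to 0.82 for Snord19.

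Host genes on the same strand were found in the tables for 51 of the 60 RNAs. These are 38 genes, of which 13 encode ribosomal proteins and host 21 of the RNAs. A further 6 RNAs lie within a same-strand gene in M21 alone, and 3 lie in none in either annotation (Snord13, Scarna2 and Scarna17). Of the 37 host genes that were tested, 1 had an adjusted p under 0.05 by edgeR's quasi-likelihood test with a higher level in Nipbl+/- and 0 with a lower level, and their median log2 fold change was -0.03. The share of all genes called was 1.95%, so 1 of 37 is near the background. At an unadjusted p under 0.05, 1 host was higher and 3 were lower, against 8.98% and 7.95% of all genes, and the exact test gave the count of higher hosts as 1 as well. Of the 51 RNAs, 7 had a higher mean RPKM than every host gene (4 H/ACA, 1 C/D and 2 scaRNAs). Spearman's rho between the mean RPKM of an RNA and of its host was 0.21 over the 51, as a description.

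The host that was higher was Ncapd2, a condensin subunit gene whose span holds Scarna10. Ncapd2 had 37.2, 35.9 and 37.03 CPM in WT and 50.6, 45.7 and 55.2 in Nipbl+/-, all above WT, and its log2 fold change of 0.46 (SE 0.07) passed edgeR's quasi-likelihood test at an adjusted p of 0.0283. Scarna10 had 0.09 (SE 0.07) in the same fit, and M21 places 281 of its 325 bases in an exon of Ncapd2 or of another gene. The count of Scarna10 divided by that of Ncapd2 was 2.75, 2.80 and 2.38 in WT and 2.09, 2.22 and 1.84 in Nipbl+/-, without overlap, and this was looked at after Ncapd2 was seen to be called. Ncapd2 had an adjusted p between 0.0579 and 0.119 by edgeR when WT culture 1, WT culture 3 or any Nipbl+/- culture was left out.

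Over 30 ratios of a tested RNA to a tested host, 23 were lower in Nipbl+/- on average and for 9 the Nipbl+/- ratios all lay under the lowest WT ratio. None had all of them above. For single genes in CPM the shares over all genes were 10.8% and 12.0%, and no such share was computed for ratios. The 9 include the RNAs already described as not overlapping in CPM, and those are not separate evidence. The others are Snora73b to Snhg3, Snora33 to Rps12 and Scarna10 to Ncapd2, whose RNAs overlapped between genotypes in CPM. Snora73a and Snora73b each enter with both Rcc1 and Snhg3. The median log2 ratio was -0.17. These ratios share hosts and libraries, and those of RNAs that overlap a host exon share reads if reads were counted for both genes.

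The proteins that bind these RNAs were read from a list of 61 genes of snoRNA particles and their assembly. Of these, 33 were listed at 0 as plus-strand genes, 3 were not found by name, and 25 were tested. With edgeR's quasi-likelihood test the adjusted p was under 0.05 for 0 genes in either direction, and 5 were higher and 0 lower at an unadjusted p under 0.05, where all genes gave 1.95% called, 8.98% higher and 7.95% lower. The median log2 fold change was 0.06, with a range of -0.07 to 0.22. The fold change was above 0 for 21 of the 25 genes and below 0 for 4, where 51.6% of all genes were below 0. Of the 8 core proteins, 6 are on the plus strand, so that fibrillarin and dyskerin cannot be read here. The C/D and spliceosomal protein gene Nhp2l1 had 113 ± 4.67 CPM in WT and 118 ± 3.33 in Nipbl+/-, and the H/ACA protein gene Gar1 had 8.36 ± 0.700 and 8.34 ± 1.24 (SD, n = 3). Their log2 fold changes were 0.06 (SE 0.05) and -0.005 (SE 0.14), neither called by the edgeR test, and the cultures of the genotypes overlapped for both.

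The libraries held between 20307454 and 25990783 counts. Nipbl itself was at 136 ± 8.26 CPM in WT and 100.8 ± 0.505 in Nipbl+/- (SD, n = 3), without overlap between cultures, and its log2 fold change was -0.43 (adjusted p 0.0213 by edgeR's quasi-likelihood test). Of 18 fibroblast markers, 5 lie on the minus strand, and these summed to between 22299 and 26102 CPM in WT and between 23279 and 25857 in Nipbl+/-. By single marker, 4 of the 5 had a log2 fold change below 0 (median -0.30, lowest -0.50), 0 with an adjusted and 3 with an unadjusted p under 0.05 by the same edgeR test. Of 15 macrophage markers, 9 were tested, and these summed to between 57.6 and 75.3 CPM in WT and between 91.1 and 181 in Nipbl+/-. The macrophage sum was thus higher in every Nipbl+/- culture. Lyz2 was the largest part of it, at 37.5 ± 6.72 CPM in WT and 76.8 ± 31.0 in Nipbl+/- (SD, n = 3). All 9 had a log2 fold change above 0, 0 with an adjusted and 8 with an unadjusted p under 0.05 by the same edgeR test. Over all genes, 1.04% and 8.98% were higher at these levels. The part of these markers in the values of the small RNAs was not tested. Epithelial markers on the minus strand summed to 0.363 to 0.534 CPM in WT and 1.03 to 2.53 in Nipbl+/-, higher in every Nipbl+/- culture. Only Krt8 of these passed the filter on low counts, with an adjusted p of 0.227 by the same edgeR test. Krt8 stood at 0.363, 0.445 and 0.325 CPM in WT and at 0.586, 0.650 and 2.01 in Nipbl+/-. Endothelial and neural markers summed to at most 16.4 CPM per list in any culture, muscle markers to between 238 and 340 CPM over all cultures, and 2 erythroid markers were at 0 in all of them.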

How the data were processed

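RNA was measured in 3 WT and 3 Nipbl+/- MEF cultures, grouped by the labels. The authors aligned rRNA-depleted reads to mm10 with TopHat2 2.0.10 and deposited, per culture, a raw read count per gene and an RPKM, which follows the count per length. The counting tool, its strand setting and its treatment of overlapping genes are not given in the sources used here.

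Counts were filtered with filterByExpr (minimum count 10), normalized by TMM and fitted in R 4.3.3 with edgeR 4.0.16 (quasi-likelihood test). P-values were adjusted by the method of Benjamini and Hochberg over 9061 genes, with a threshold of 0.05. Standard errors came from the quasi-likelihood F statistic. Replicates differed by more than counting noise (chi-square per degree of freedom 9.51 to 32.3). The floor was 3 counts. Exon overlaps and sequences came from GENCODE M21, which gives 59 of the 60 RNAs at the same position.

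Named RNAs are the 5 highest by RPKM in each class, the 5 highest and 5 lowest fold changes, and any called, with their hosts, the core proteins and Nipbl. Others, named for context, were chosen after their values were seen. The RNAs and lists were chosen with earlier results of these data known. Alternatives were DESeq2 1.42.0, its size factors in edgeR, library size alone, the exact test, no filter, CPM above 1 in 3 cultures, limma 3.58.1 on log2(RPKM + 1) and log2(RPKM + 0.1), a block for the replicate number, leaving out each culture, and RNAs without exon overlap or with names in mixed case. The tests were checked on simulated data.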

Additional observations from a re-analysis of the deposited data

How the results depend on the processing

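No small RNA passed an adjusted p of 0.05 in any of the 15 alternative fits, but not every RNA could be called in each. DESeq2 gave no adjusted p for RNAs that include Snord123, Snord69 and Snora2b. The fit with CPM above 1 in at least 3 cultures tested 19 RNAs and left these out. The lowest adjusted p values were 0.0583 for Snord123 by edgeR's exact test and 0.0611 for Snord17 by edgeR's quasi-likelihood test without WT culture 3. Of the 33 tested RNAs, 17 kept the sign of their fold change in all of the alternative fits in which they were tested (16 below 0 and 1 above). The number of host genes that were higher was 1, and it was 0 with limma on log2(RPKM + 1), 0 with limma on log2(RPKM + 0.1) and 0 to 1 when a culture was left out. The H/ACA median log2 fold change ranged from -0.34 to -0.035 and the C/D median from -0.48 to -0.11 when a culture was left out, and the scaRNA median from -0.11 to 0.04. Over RNAs with no exon overlap, the C/D median was -0.41. The median RPKM of these RNAs with no overlap was 13.7 in WT and 11.1 in Nipbl+/- for H/ACA RNAs, 3.11 and 3.14 for C/D RNAs, and 48.0 and 50.6 for scaRNAs. Their share of the total count was 0.0235% and 0.0197% for H/ACA RNAs and 0.00974% and 0.00973% for scaRNAs, and 0.00796% and 0.00623% for C/D RNAs. These sets hold fewer genes by construction. With the replicate number as a block, 0 small RNAs were called, 2 stood at an unadjusted p under 0.05, and the count over all genes was 86 where it was 177 without the block. Deviations of same-numbered cultures from their genotype means correlated at -0.06, -0.04 and -0.14. These values gave no sign that the numbers pair the cultures, but with 3 cultures per genotype they cannot exclude it. Over all genes, the edgeR test called 177, DESeq2 449, the exact test 432, the fit without a filter 325, limma 30 with either pseudocount and the fits with a culture left out 3 to 268. Ncapd2 and Nipbl had adjusted p values of 0.0708 and 0.0681 with limma on log2(RPKM + 1), and 0.0660 and 0.0647 on log2(RPKM + 0.1). Nipbl had 0.0755 to 0.0864 without WT culture 1, Nipbl+/- culture 1 or Nipbl+/- culture 2. The cause of these changes was not tested. Depth limits the 27 small RNAs that were not tested, none of which had more than 15 counts in a culture.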
